A study of Mus musculus with 2 samples.

Results

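Open chromatin at 45 imprinted genes was described in 2 DNase-seq libraries of mouse hippocampus. The genes were chosen by name, as genes known from the literature to be expressed from 1 parental copy in some mouse tissue, and the rule that chose them uses no measured value, although it was written with earlier results of these data known. They are 45 of the 31773 genes with a unique symbol used in the GENCODE M21 annotation, 38 of them protein-coding and 7 noncoding. Both libraries came from B6CASTF1/J mice, the F1 offspring of a cross between the strains C57BL/6J and CAST/EiJ. The mice were females of 14 days, and the label of each library names 3 females. The labels name no treatment, and the libraries form 1 group, replicates 1 and 2. Their biosample identifiers differ, while the donor identifier is shared. Nothing in the labels says that they came from separate animals, so the spread between them may be technical. The files used here hold no allele information, so the maternal and paternal copies of a gene cannot be told apart in any value below, although the strain cross would allow it.

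An imprinted gene is marked in the germline by DNA methylation of a control region on the copy from 1 parent, and the mark is kept in most cells of the offspring. The zinc finger protein ZFP57 and its cofactor TRIM28 bind the methylated copy at the letters TGCCGC and protect the mark, while CTCF binds some control regions on the unmethylated copy and blocks enhancers there. Many imprinted genes act in growth, placental function and the brain, and several are expressed in neurons from a start, or in a parental pattern, that other tissues do not use.

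At H19 the sequence of interest lay upstream of a closed gene. H19 is a maternally expressed noncoding RNA, and the control region it shares with Igf2, a fetal growth factor, contains the best known CTCF sites of any imprinted locus. No peak lay within 500 bp of any of the 7 starts of H19 in either library, yet 4 intergenic peaks within 20 kb upstream were present in both. The 3 nearest to the gene hold CTCF letters and are shown; the fourth, 10.5 kb upstream, holds none. Replicate 2 had 3 more upstream peaks of its own, also with none. In replicate 1 the peaks shown lay at chr7:142580221-142580420, chr7:142580681-142580880 and chr7:142581741-142582080 on mm10, 2.18, 2.64 and 3.77 kb upstream of the 5′ end. Of the last, the central 300 bp are shown, chr7:142581761-142582060. All are on the minus strand, the strand of H19, and the capitals mark matches, on either strand, to a CTCF core of 12 letters: CC, any letter, C, any 2 letters, GG, any letter and GGC. The farthest of the 3 held 2 matches and each of the others held 1.
H19 upstream peak nearest the gene: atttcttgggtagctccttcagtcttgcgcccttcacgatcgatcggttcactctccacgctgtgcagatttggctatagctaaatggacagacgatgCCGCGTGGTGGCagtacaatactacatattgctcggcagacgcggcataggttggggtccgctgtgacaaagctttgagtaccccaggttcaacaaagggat
H19 upstream peak in the middle: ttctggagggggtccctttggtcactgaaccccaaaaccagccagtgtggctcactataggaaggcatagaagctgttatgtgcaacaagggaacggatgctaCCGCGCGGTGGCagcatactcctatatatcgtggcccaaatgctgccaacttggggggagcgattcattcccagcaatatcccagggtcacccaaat
H19 upstream peak farthest of the 3: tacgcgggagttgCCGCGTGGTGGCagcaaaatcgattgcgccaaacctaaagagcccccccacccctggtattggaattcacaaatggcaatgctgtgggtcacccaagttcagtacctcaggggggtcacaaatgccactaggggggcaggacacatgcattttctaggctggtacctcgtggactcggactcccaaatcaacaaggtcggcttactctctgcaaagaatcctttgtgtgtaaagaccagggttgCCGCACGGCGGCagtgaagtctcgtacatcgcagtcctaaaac

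At Meg3, a maternally expressed noncoding RNA, a comparable match lay inside the gene. The peak at chr12:109542941-109543160, 2.05 kb past the 5′ end and in an exon, held 1 match to the CTCF core, printed here on the plus strand.
Meg3 body peak: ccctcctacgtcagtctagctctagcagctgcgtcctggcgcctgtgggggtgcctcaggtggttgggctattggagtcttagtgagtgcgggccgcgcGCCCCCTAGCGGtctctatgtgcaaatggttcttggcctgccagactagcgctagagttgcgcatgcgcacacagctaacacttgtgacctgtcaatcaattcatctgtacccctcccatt

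Peg3 encodes a zinc finger protein expressed from the paternal copy, and the first intron behind its start is known for a run of YY1 sites. The strongest peak there in replicate 1 lay at chr7:6729441-6729720, 0.85 kb past the 5′ end. It is printed on the minus strand, and capitals mark 3 matches to the ZFP57 letters TGCCGC, or GCGGCA as the reverse complement, and 2 matches to the YY1 letters AANATGGC, or GCCATNTT. The YY1 letters were added after the peaks had been seen.
Peg3 intron peak: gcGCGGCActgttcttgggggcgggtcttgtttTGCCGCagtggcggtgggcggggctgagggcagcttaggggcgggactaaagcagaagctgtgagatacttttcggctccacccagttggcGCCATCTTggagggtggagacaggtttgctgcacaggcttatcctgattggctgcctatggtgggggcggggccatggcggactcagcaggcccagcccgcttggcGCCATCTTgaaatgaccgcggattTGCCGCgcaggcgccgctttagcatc

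The remaining sequences are the strongest start peaks of members, 1 peak per gene, in which the ZFP57 letters occurred 2 or more times in 300 bp, given on the strand of each gene with TGCCGC or GCGGCA in capitals. The coding genes are shown up to 30 bp past the start. Snrpn (chr7:60005082-60005300, minus strand) encodes a splicing protein, Mest (chr6:30737901-30738079, plus strand) a hydrolase, Nap1l5 (chr6:58907047-58907240, minus strand) a nucleosome assembly protein and Mcts2 (chr2:152686771-152687064, plus strand) a translation factor copied into an intron of H13. Peg13 (chr15:72809891-72810190, minus strand) is a noncoding RNA inside Trappc9. All 5 are expressed from the paternal copy. The printed stretch of Snrpn held both of its 2 matches, and those of Mcts2 and Peg13 all 3 matches each. For Mest it held 1 of 4 and for Nap1l5 2 of 3.
Snrpn start: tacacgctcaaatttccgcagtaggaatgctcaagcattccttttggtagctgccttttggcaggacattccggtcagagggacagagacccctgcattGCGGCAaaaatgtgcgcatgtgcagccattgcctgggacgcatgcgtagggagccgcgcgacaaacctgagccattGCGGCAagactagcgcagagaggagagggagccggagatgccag
Mest start: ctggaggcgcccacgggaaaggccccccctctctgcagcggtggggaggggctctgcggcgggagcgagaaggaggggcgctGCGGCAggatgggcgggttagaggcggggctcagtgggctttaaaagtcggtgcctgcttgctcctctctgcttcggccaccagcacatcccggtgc
Nap1l5 start: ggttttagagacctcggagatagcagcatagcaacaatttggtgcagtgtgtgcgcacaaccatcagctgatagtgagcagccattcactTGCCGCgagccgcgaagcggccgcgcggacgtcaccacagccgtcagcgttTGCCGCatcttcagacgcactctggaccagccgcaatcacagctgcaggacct
Mcts2 start: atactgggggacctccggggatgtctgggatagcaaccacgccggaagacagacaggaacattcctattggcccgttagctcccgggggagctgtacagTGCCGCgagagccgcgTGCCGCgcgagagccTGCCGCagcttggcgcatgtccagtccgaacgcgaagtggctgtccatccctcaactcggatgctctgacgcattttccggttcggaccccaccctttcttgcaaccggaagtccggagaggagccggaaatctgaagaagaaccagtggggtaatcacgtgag
Peg13 start: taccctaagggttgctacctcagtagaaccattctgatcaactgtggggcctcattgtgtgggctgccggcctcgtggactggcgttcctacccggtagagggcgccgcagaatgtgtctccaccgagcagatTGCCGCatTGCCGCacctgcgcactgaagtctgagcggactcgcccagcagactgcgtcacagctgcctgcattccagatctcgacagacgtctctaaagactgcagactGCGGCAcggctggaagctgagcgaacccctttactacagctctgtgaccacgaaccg

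The longer of the 2 deposited peak lists of each library was used, with 115699 peaks in replicate 1 and 167829 in replicate 2. Signal, the authors' value for each peak, has a scaling that is not stated, so the depth in reads is unknown. Levels are compared within a library, and a ratio of the libraries only with the same ratio at other genes. Over all peaks its median was 0.821 and 0.485. As a check of the tissue, 7 of 7 hippocampal neuron markers had a start peak in both libraries, and 3 of 3 choroid plexus markers and 4 of 4 liver and muscle markers had none in either. Over all coding genes 63.2% had one in both libraries. Among coding genes of similar CpG content at the annotated 5′ end, the mean was 81.8% for the neuron markers, so this check is weak. It was 47.3% for the choroid plexus markers and 32.5% for the liver and muscle markers. Astrocyte markers had one in both libraries in 3 of 3 cases, oligodendrocyte and microglia markers in 2 of 3 each, and vessel and interneuron markers in 1 of 3 each. Starts of genes from several cell types were thus open, and a weaker peak in a bulk sample cannot be told apart from fewer cells with that peak.

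A start peak was present in both libraries in 37 of 45 imprinted genes, where a start peak means a peak within 500 bp of any annotated transcript start. This was 32 of 38 coding members, against 63.2% of all coding genes, and 5 of 7 noncoding members, against 25% of all noncoding genes, or 51.3% of both kinds together. The members have more annotated starts than other genes, a median of 5 against 3 in coding genes and 2 in all genes, so more sequence was searched at them. They are also richer in CpG at the annotated 5′ end. Among coding genes of the same decile of that CpG content, a mean of 70.6% had a start peak in both libraries. CpG content was taken at the 5′ end only, while peaks were counted at any start. Snrpn, Blcap and Mest, with their strongest peak at a later start, were thus matched on a CpG-poor 5′ end. The mean of 70.6% therefore does not describe genes with promoters like those that were open. With the annotated 5′ end alone, 30 of 45 members had one, against 57.3% of coding genes. Among genes usually expressed from the paternal copy, 19 of 24 had a start peak in both libraries, and among maternally expressed genes 8 of 11. All 10 genes whose imprinting depends on tissue, isoform or start had one, and their median number of starts was 8.

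**Figure D1:**
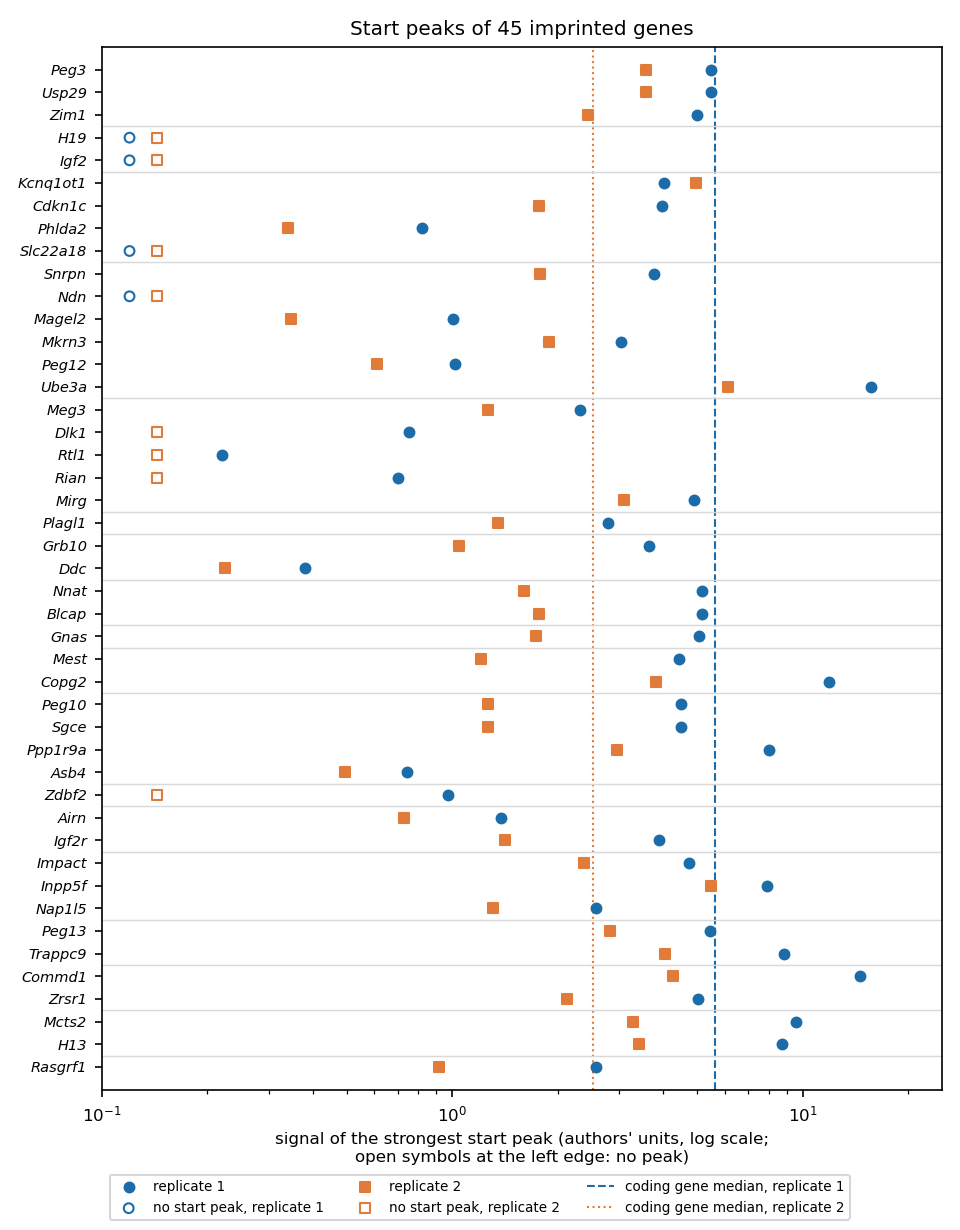
Signal of the strongest peak within 500 bp of a transcript start, on a log axis, for 45 imprinted genes grouped by locus. Circles are replicate 1 and squares replicate 2, open symbols mark genes with no start peak, and the vertical lines are the medians of coding genes with a start peak, 5.62 and 2.52. H19, Igf2, Slc22a18 and Ndn have no start peak in either library, and Ube3a and Commd1 lie farthest to the right in replicate 1.

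Most of the open starts were of moderate strength. Members with a start peak had a median signal of 4.45 in replicate 1 and 1.77 in replicate 2, against 5.62 and 2.52 over coding genes with one. Of the 37 members with a start peak in both libraries, 24 lay under the coding median in both, where 42.5% of coding genes with a start peak in both did. The 8 members above it in both were Ube3a, Copg2, Ppp1r9a, Inpp5f, Trappc9, Commd1, Mcts2 and H13, of which Ppp1r9a was so through an internal start alone. Of these, 5 belong to the genes with tissue- or isoform-dependent imprinting, Ppp1r9a and H13 are usually listed as maternally expressed, and Mcts2 is the paternally expressed gene among them. The ratio of the deposited signal of replicate 1 to that of replicate 2 had a median of 2.24 at the 37 starts, against 2.40 over coding genes. It was under 1 at 1 of them, Kcnq1ot1, with 0.81, as it was in 2.89% of coding genes.

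Within the Peg3 cluster every member was open. Peg3 and Usp29, a deubiquitinase gene read in the opposite direction, shared 1 peak (chr7:6730301-6730620 in replicate 1) with signals of 5.47 and 3.58, here and below in replicates 1 and 2 in that order. Zim1, a zinc finger gene expressed from the maternal copy, had 5.0 and 2.44. The start of Peg3 was weaker than its own intron. Behind it, 4 peaks in each library spread over 2300 bp in replicate 1 and 2320 bp in replicate 2, and the peak printed above had 8.15 and 4.27. This stretch held 11 matches to the YY1 letters, of which 8 in replicate 1 and 9 in replicate 2 lay under a deposited footprint, a short protected stretch within cut chromatin. The letters occurred in 9.2% and 9.62% of the start windows of coding genes and in 5.05% and 5.50% of all distal peaks, each as a 300 bp window. They lay under a footprint in 4.50% and 4.44% of those start windows. These are shares of short windows, while the 11 matches are a count over a longer stretch, so the values are not alike. Of the 2 YY1 matches in the printed peak, both lay under footprints in both libraries.

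The H19 and Igf2 cluster was the one without a start peak. All 7 starts of H19 and all 9 starts of Igf2 had 0% of bases under the FDR limit within 500 bp in both libraries, where the FDR is the authors' false discovery rate of the cut rate and the limit is 0.05. The 3 upstream peaks of H19 with CTCF letters had signals of 1.48, 2.00 and 1.62 in replicate 1 and of 0.756, 0.825 and 0.836 in replicate 2, from the nearest to the farthest. All 4 CTCF core matches in replicate 1 lay under footprints, and 3 of 4 did in replicate 2. Over all distal peaks, 5.47% and 3.92% held the core in replicates 1 and 2, and 4.02% and 2.90% held it under a footprint. A core match under a footprint was thus common among distal peaks with the core. TGCCGC occurred 2 times in the nearest of these peaks and 3 times in the farthest, and 4 of those 5 occurrences overlap a CTCF core match, so the letters do not separate both proteins there. The fourth shared peak, without such letters, had 0.745 and 0.935, which made it the weakest of the 4 in replicate 1 and the strongest in replicate 2. Igf2 had peaks 5.51 kb and 9.05 kb upstream, both intergenic, with 0.988 and 0.767 in replicate 1 and 1.62 and 1.43 in replicate 2.

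**Figure D2:**
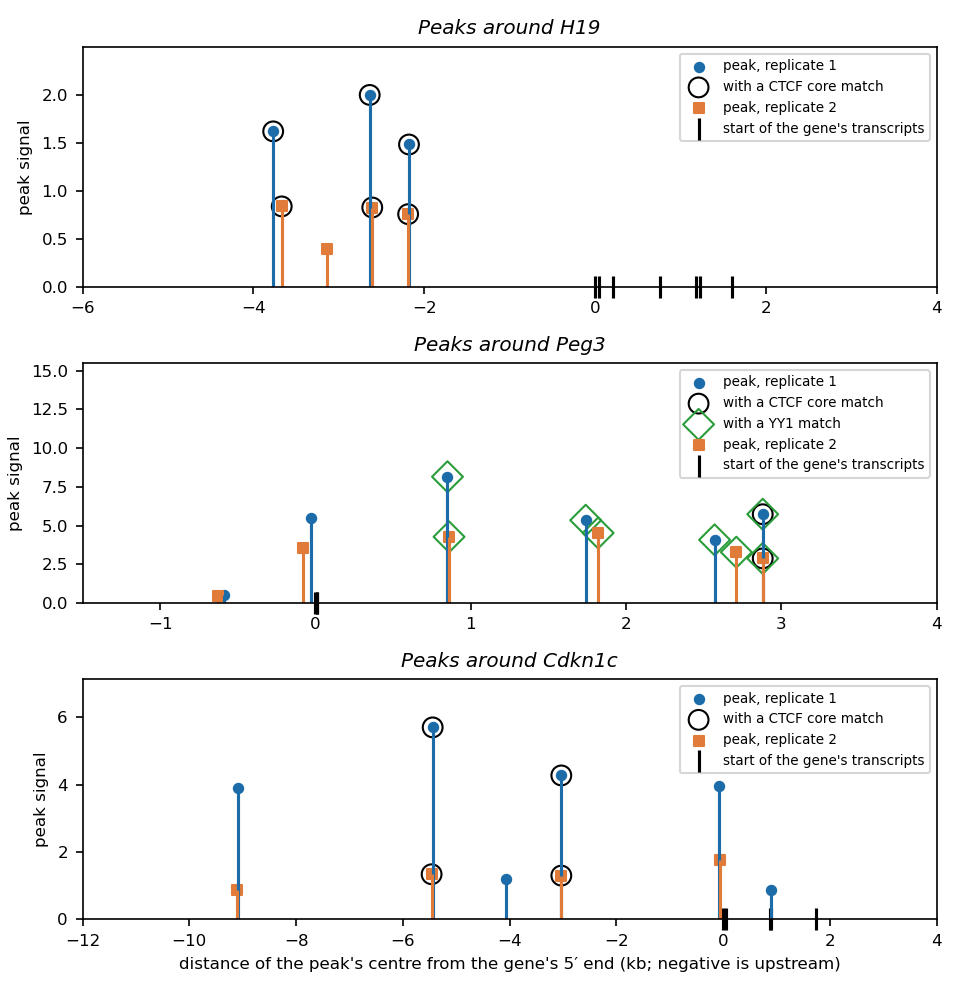
Peak signal, in the authors' units, against distance from the 5′ end of H19, Peg3 and Cdkn1c in kb, in the direction of transcription. Circles are peaks of replicate 1 and squares those of replicate 2, ringed where the 300 bp around the peak hold a CTCF core match and, for Peg3, framed by a diamond where they hold YY1 letters; vertical ticks are transcript starts. Between 2 and 4 kb upstream of H19, 3 peaks are ringed in both libraries, a peak of replicate 2 alone is not, and the H19 starts carry no peak; the shared peak 10.5 kb upstream lies outside the plot.

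In the Kcnq1 cluster the start of Kcnq1ot1, the paternally expressed antisense RNA that silences its neighbours in cis, gave 4.03 in replicate 1 and 4.97 in replicate 2. Cdkn1c, a maternally expressed inhibitor of the cell cycle, had 3.96 and 1.77, and Phlda2, a maternally expressed inhibitor of placental growth, had 0.821 and 0.340. Slc22a18, a transporter gene, had no start peak in either. Upstream of Cdkn1c, 2 intergenic peaks with CTCF core matches were as strong as its start in replicate 1 or stronger. The one 3.03 kb upstream (chr7:143463981-143464180) had 4.27 and 1.29 and held 2 matches, and the one 5.44 kb upstream (chr7:143466401-143466580) had 5.70 and 1.33 and held 1. All 3 matches lay under footprints in both libraries, which was common among distal peaks with the core. In replicate 2 both peaks were weaker than the start.

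The Snrpn cluster, the counterpart of the human Prader-Willi and Angelman region, divided by gene. Ube3a, a ubiquitin ligase expressed from the maternal copy in neurons, had the highest signal of all members in both libraries, 15.7 and 6.14. Snrpn had 3.76 and 1.78 at its second start, and its first start, 135 kb upstream, carried a peak of 0.248 in replicate 2 alone. Mkrn3, a ubiquitin ligase known for the timing of puberty, had 3.03 and 1.89, Magel2, a regulator of protein sorting, had 1.00 and 0.346, and Peg12 had 1.02 and 0.611. Ndn, a MAGE family gene of neurons, had no peak in either library at its 1 annotated start. Yet a peak of 4.77 and 1.86 lay 1.72 kb downstream of that start in its exon (chr7:62348201-62348380). Whether it marks a start that the annotation lacks was not tested. Ndn is thus counted as without a start peak by its 1 annotated start only, which does not show that its promoter was closed. The exon peak was stronger than the starts of Mkrn3, Magel2 and Peg12 in replicate 1.

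In the Dlk1 and Meg3 cluster 3 of 5 members had a start peak in replicate 1 alone. Meg3 had a start peak of 2.32 and 1.26, and no peak lay between 1 kb and 20 kb upstream of it in either library, the stretch that contains the intergenic control region of this cluster. The Meg3 peak printed above was stronger than the start, at 4.02 and 1.72, and its CTCF core match lay under a footprint in both. The core occurred in 8.25% and 7.85% of the start windows of coding genes, and under a footprint in 5.88% and 5.31%. Dlk1, a paternally expressed transmembrane ligand, Rtl1, a gene derived from a retrotransposon, and Rian, a host of small RNAs, had start peaks of 0.752, 0.220 and 0.699 in replicate 1 and none in replicate 2. The strongest distal peak of Dlk1 lay 14.9 kb upstream, with 4.25 and 1.26, and was thus far stronger than its start. Mirg, a host of microRNAs, had 4.90 and 3.10, at the last of its 11 starts and 457 bp from it, while its other starts had no peak in either library.

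The Peg10 cluster was open in all 4 members. Peg10, a retrotransposon-derived gene needed in the placenta, and Sgce, a sarcoglycan gene whose loss causes myoclonus dystonia, diverge from 1 shared peak of 4.51 and 1.27. An intron peak 1.99 kb inside Peg10 was stronger, at 7.94 and 3.76. Ppp1r9a, which encodes the actin-binding neurabin, had 8.01 and 2.96 at start 10, that of a noncoding transcript 208 kb inside the gene, and 1.87 and 0.554 at starts 1 to 6 at its 5′ end, and Asb4 had 0.745 and 0.496. Mest had 4.45 and 1.21, and Copg2, a coat protein gene that overlaps it, had 11.9 and 3.82.

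The nested genes named here and their hosts all had a start peak in both libraries, as 63.2% of coding and 25% of noncoding genes did. Mcts2 had 9.57 and 3.29, and its host H13, a signal peptide peptidase gene, had 8.73 and 3.41. In an intron 27.5 kb inside H13, beyond Mcts2, lay a peak at chr2:152696841-152697060 with 10.4 and 3.29, 149 bp from an annotated start. It held 2 CTCF core matches, both under footprints in both libraries. Most start windows of coding genes with the core also held it under a footprint. Peg13 had 5.43 and 2.83, and its host Trappc9, a gene of intracellular transport, had 8.87 and 4.06. Zrsr1, a splicing factor copy, had 5.03 and 2.13, and its host Commd1, a regulator of copper handling, had 14.6 and 4.26. The Zrsr1 peak also lies at an internal start of Commd1, so this pair is not independent. Nnat, the neuronal gene neuronatin, had 5.16 and 1.60, and Blcap, in whose intron it lies, had 5.16 and 1.77, from the same peak as Nnat in replicate 1. For Peg13 and Zrsr1 the nested gene was weaker than its host in both libraries, while Mcts2 and H13 changed order between them.

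Among the members outside those clusters, Inpp5f, an inositol phosphatase gene, was the strongest, with 7.89 and 5.47. Impact, a regulator of translation, had 4.73 and 2.37, at a peak 398 and 418 bp from a start 18.4 kb inside the gene. Igf2r, the receptor that clears IGF2, had 3.89 and 1.42, and Airn, the antisense RNA that starts in its intron, had 1.38 and 0.727. Grb10, an adaptor of insulin signalling, had 3.65 and 1.04, and its neighbour Ddc, an enzyme of dopamine and serotonin synthesis, had 0.380 and 0.225, the weakest start with a peak in both. Plagl1, a zinc finger gene, had 2.79 and 1.36, Nap1l5 had 2.58 and 1.30, and Rasgrf1, an exchange factor of neuronal signalling, had 2.58 and 0.917. Zdbf2 had 0.973 in replicate 1 and no start peak in replicate 2.

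Inside several genes only some starts carried a peak. The 45 members have 279 distinct starts, of which 151 carried a peak in both libraries. Neighbouring starts often share a peak, as starts 1 to 7 of Ube3a do, so these are not 151 separate sites. The same counts over all genes were not taken, so the counts of starts here describe the members only. In 14 members every start did, in 23 some did, and in 8 none did. In 12 members the strongest start peak lay away from the first start in both libraries: Blcap, Ddc, Gnas, Grb10, Impact, Mest, Mirg, Phlda2, Plagl1, Ppp1r9a, Snrpn and Zrsr1. Gnas, which encodes the stimulatory G protein alpha subunit and has imprinted and biallelic promoters, had a peak at 13 of its 16 starts. Its first start had 1.61 and 0.577, starts 5 to 10 shared 2.69 and 1.73, and starts 11 to 14, 45.7 to 46.0 kb from the first, shared 5.08 and 1.71. In replicate 1 the last of these groups was the strongest, and in replicate 2 it was level with starts 5 to 10.

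Grb10 is expressed from the maternal copy in most tissues and from the paternal copy in neurons, where it uses a downstream start. The first 3 starts of Grb10 had no peak in either library, and its start 4 had 2.55 and 0.940 and start 5 3.65 and 1.04. These were the 2 of 9 starts with a peak. Mest was open at 3 of 10 starts, which share a peak, and Inpp5f at both ends. The peak at the first starts of Inpp5f had 7.89 and 5.47, and that at its last start, which carries a known imprinted isoform, had 5.84 and 2.36 and held 2 matches to TGCCGC. Ube3a had a peak at 9 of 16 starts, all at its 5′ end, and Airn at 5 of 6.

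**Figure D3:**
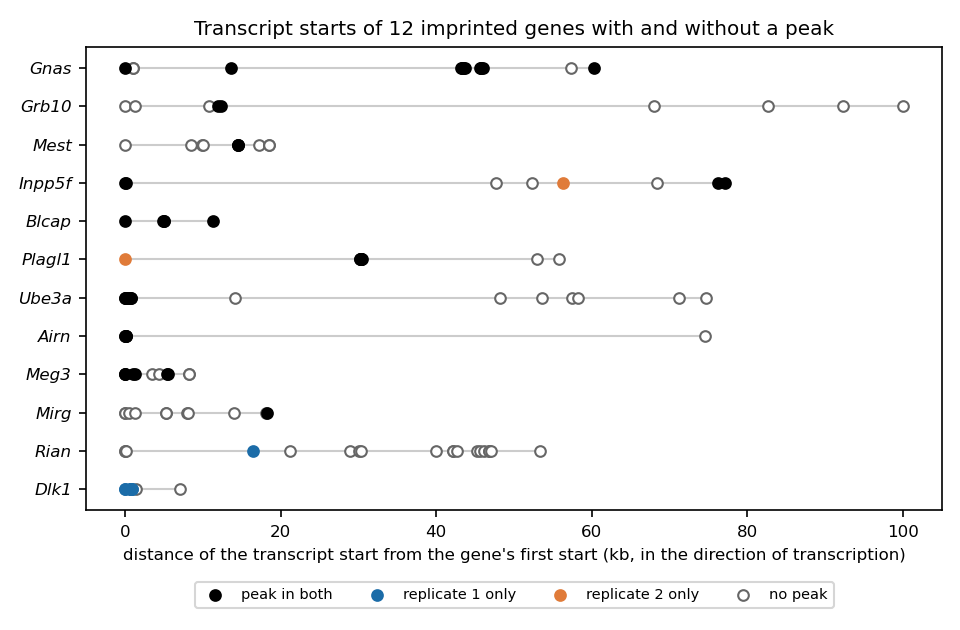
Annotated transcript starts of 12 imprinted genes by distance from the first start of the gene in kb. Filled black points had a peak within 500 bp in both libraries, blue and orange points in replicate 1 or 2 alone, and open points in neither; neighbouring points overlap. Grb10 is open at starts 4 and 5 and closed elsewhere, Inpp5f is open at both ends, and Mirg is open at its last start.

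Around the best start of each member, a median of 69.9% of the bases within 500 bp were under the FDR limit, taking the mean of both libraries for each gene. The medians of the single libraries were 74.5% in replicate 1 and 65.0% in replicate 2. Over coding genes the median of the means was 61.5%, and over coding members alone it was 73.3%. Over all genes of both kinds it was 25.7%. The best of all starts was taken, and members have a median of 5 starts against 3 in coding genes, so more sequence was searched at them. At the annotated 5′ end alone the members had 55.4%, a setting at which no value over coding genes was taken. Ube3a, Grb10, Copg2, Sgce and Inpp5f reached 100% in both libraries, while Ddc reached 24.2% and 17.5%. A footprint lay within 500 bp of a start in both libraries in 34 of 45 members, 30 of 38 coding and 4 of 7 noncoding, against 61.5% of coding genes, 22.5% of noncoding genes and 49.4% of both kinds together. The 11 without were the 4 genes with no start peak, the 4 with one in replicate 1 alone, and Phlda2, Ddc and Mirg.

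Away from starts, the members had a median of 4.5 distal peaks as the mean of both libraries, against 2.5 over coding genes. A distal peak lies in the gene or within 20 kb of it and over 1 kb from every start of any gene. Longer genes have more of them. Of 45 members, 24, or 53.3%, had more than the median of coding genes in their length decile, near the 48.7% of all genes. Among coding members it was 23 of 38, against 46.1% of coding genes, and among noncoding members 1 of 7, against 54.5% of noncoding genes. The members with the most were Trappc9 with 17 in replicate 1 and 28 in replicate 2, and Usp29 with 18 and 19. Inpp5f followed with 8 and 14, Airn with 9 and 11, Asb4 with 9 and 10, Ppp1r9a with 7 and 12, Copg2 with 5 and 14, Rasgrf1 with 8 and 10, Plagl1 with 8 and 9, Ddc with 7 and 10 and H13 with 11 and 6. Airn, Ppp1r9a, Copg2 and Rasgrf1 were nonetheless under the median of their length decile. Meg3, Ube3a, Rian and Rtl1 had none in either library, which contrasts with the strong start of Ube3a.

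Per 10 kb of span, Mcts2 led with 1.83 distal peaks, followed by H19 with 1.64, Nnat with 1.41, Cdkn1c with 1.17, Blcap with 1.09, H13 with 1.07, Asb4 and Mkrn3 with 1.06 each and Slc22a18 and Dlk1 with 0.99 each. H19, Slc22a18 and Dlk1 are thus among the members densest in distal peaks while closed or nearly closed at their starts. The values of Nnat and Blcap rest on replicate 2, in which 12 distal peaks were called and 0 in replicate 1. Of those 12, 8 were weak, between 0.0808 and 0.208, and lay within 3466 bp downstream of Nnat. Neighbouring members count the same peaks, as Mcts2 and H13 or Cdkn1c and Slc22a18 do.

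The strongest distal peak of all members lay 6.47 kb upstream of Trappc9 in intergenic sequence (chr15:73067541-73067800), with 20.03 and 9.22, above the start of Trappc9 itself. An intron peak of Inpp5f, 79.1 kb inside the gene, had 10.3 and 4.17. An intron peak of Usp29, 188 kb inside, had 6.18 and 3.07, a Gnas intron peak 28.0 kb inside had 2.80 and 2.26, and an Airn intron peak 98.4 kb inside had 2.70 and 3.01. An intron peak of Grb10, 65.1 kb inside and 2.84 kb from the nearest start, had 2.70 and 1.66. Counted once each, 182 distal peaks of replicate 1 and 238 of replicate 2 belonged to members. Of these, 73.6% and 57.6% overlapped a peak of the other library, against 68.9% and 42.7% of all distal peaks.

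The CTCF core occurred in the 300 bp around 12 of the 182 distal peaks in replicate 1, or 6.59%, and in 15 of the 238 in replicate 2, or 6.30%. Over all distal peaks these shares were 5.47% and 3.92%. Of these, 3 in each library were the upstream peaks of H19 and 2 in each the upstream peaks of Cdkn1c. The shares of members thus lean on these 2 loci, and shares without them were not taken. At start peaks the core occurred in 2 members in each library, Copg2 and Commd1, or 4.88% and 5.41% of members with a start peak, against 8.25% and 7.85% of coding genes.

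The ZFP57 letters TGCCGC were found on either strand in the 300 bp around the strongest start peak of 18 of 41 members in replicate 1 and 17 of 37 in replicate 2. For coding members this was 14 of 35 and 13 of 32, or 40.0% and 40.6%, against 26.6% and 23.7% of coding genes with a start peak. Some members share a window, as Peg10 and Sgce do. Counted once each, 16 of 38 windows held the letters in replicate 1 and 16 of 35 in replicate 2. The windows of members had a median GC content of 61.7% and 60.7%, against 65.3% and 63.3% in coding genes. Coding genes of the same GC deciles as the members held the letters in 22.4% and 20.3%. A match under a footprint was found in 9 members in replicate 1 and 11 in replicate 2, or 6 and 9 coding members, against 11.2% and 9.46% of coding genes. The 5 members with 2 or more matches were the same in both libraries, against 4.76% and 3.79% of coding genes. They are Snrpn, Mest, Nap1l5, Mcts2 and Peg13, whose start peaks are printed above.

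**Figure D4:**
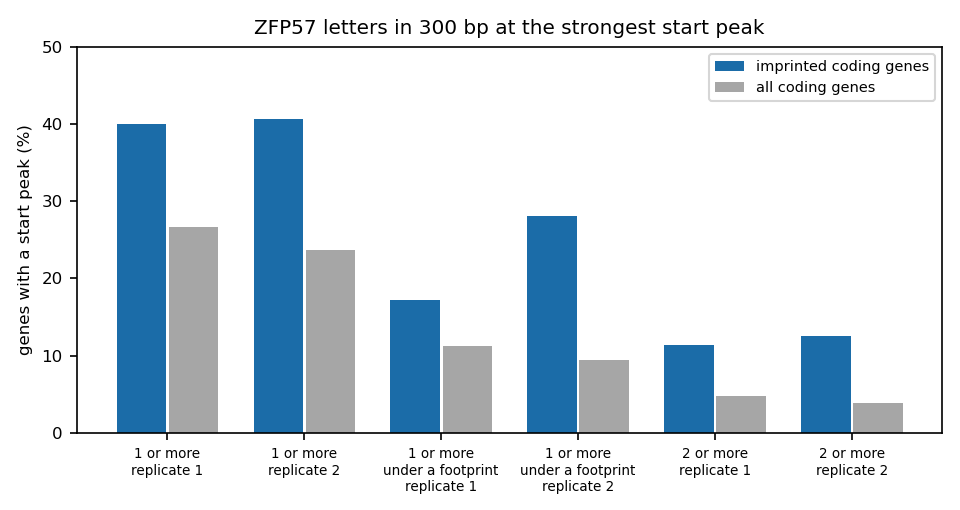
Share of genes with a start peak whose strongest start peak held TGCCGC within 300 bp, in percent, for imprinted coding genes and all coding genes in each library. The imprinted genes stand at 40.0% and 40.6% for 1 or more matches and at 11.4% and 12.5% for 2 or more; bars carry no error because each is 1 share in 1 library.

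In the printed Peg13 sequence, 2 of 3 matches lay under footprints in replicate 1 and all 3 in replicate 2. In Mcts2 it was 2 of 3 in replicate 1 and 1 in replicate 2, and in Snrpn 1 of 2 in both. The 1 match printed for Mest lay under a footprint in both libraries. The matches printed for Nap1l5 lay under no footprint in either library, while its full 300 bp window in replicate 2 held 1 match under a footprint. A match to these letters is a description of the sequence and does not show that ZFP57 was bound.

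Of 17 genes that keep imprints, 15 had a start peak in both libraries, or 88.2%, against 63.2% of coding genes. The mean was 73.0% at the same CpG deciles of the annotated 5′ end, which is CpG-poor in Dnmt1 and Trim28. These 17 genes have a median of 7 starts. Dnmt1, the methyltransferase that copies methylation, had 15.6 and 5.83, Trim28 had 11.8 and 3.64, Ctcf had 7.13 and 2.44 and Zfp57 had 1.62 and 0.808. Dnmt3l and Dppa3, which act in germ cells and the early embryo, had none in either library. Of 28 further genes listed as imprinted in the mouse, 15 had a start peak in both libraries and 9 in neither. The 15 are 53.6%, under the 63.2% of coding genes, the mean of 61.8% at the same CpG deciles and the 82.2% of the members. Nap1l4 and Tssc4, neighbours of Phlda2 and Cdkn1c in the Kcnq1 cluster, had 23.0 and 9.97, and 13.1 and 9.60. Both were stronger than every member of that cluster, and Kcnq1 itself had no start peak in either library.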

How the data were processed

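DNase-seq of hippocampus was measured in 2 libraries of 1 group. Peaks, footprints and FDR files were derived by the authors from each library's own alignment on mm10, per the deposited file listings, so peaks were called per library. For the aligner and the callers, no name is given in the sources used here. The authors' peak values are a signal whose scaling is not stated; the deposited footprints carry a score of 0.01 in every row and were used by position; the deposited FDR files (q-values) list runs of bases under 0.05.

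Genes and starts came from GENCODE M21 and the sequence from GRCm38.p6, the mm10 assembly, in which 32851 of 32851 RefSeq promoter sequences were identical at their coordinates. Peaks were assigned to starts within 500 bp, and distal peaks lay over 1 kb from every start. Letters were searched in 300 bp centred on a peak, on both strands. A peak near starts of several genes counts for each. Coordinates are 1-based. Python 3.11.15, numpy 2.4.6 and pandas 2.3.3 were used, and the assignment was tested on simulated peaks, where 200 of 200 were recovered. With 1 group, no condition was compared and no test was run; counts stand beside those over all genes, and the values of both libraries are given in place of an SD. The members and lists were chosen with earlier results of these data known. All 45 members could be named, and the strongest start peak was given for each, the strongest distal peak for clusters where it bears on a result, and the members leading in distal peaks. Of 29 further imprinted genes, 28 matched the annotation.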

Additional observations from a re-analysis of the deposited data

How the results depend on the processing

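The count of 37 members with a start peak in both libraries ranged from 30 to 37 under 6 other settings, and was 37 to 41 with 1 library left out. The count of 34 with a footprint was 33 or 34, and 35 to 39 with 1 library left out. The median of 4.5 distal peaks was 2.5 with the shorter peak lists, 3 with equal numbers of peaks, 1 in the gene body alone, 9 with 50 kb either side, and 4 to 4 with 1 library left out. The median of 69.9% of bases under the FDR limit was 96.8% within 250 bp of the start, 55.4% at the annotated 5′ end alone, 64.9% at an FDR of 0.01 and 65.0% to 74.5% with 1 library left out. The 18 members with TGCCGC became 8 with TGCCGCG, against 7.67% of coding genes, and the mean of 13.5 distal peaks with the CTCF core became 6.5 with AG added to it and was 12 to 15 with 1 library left out. With the shorter peak lists, 6 members in replicate 1 and 3 in replicate 2 lost their start peak. The 69 signals that remained had the same value in both lists, so they do not test how stable the signal is. No paired analysis was possible because there is 1 group. Depth in reads is unknown, so an absent peak means that none was called.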
